A study of Mus musculus with 6 samples.

Results

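Intestinal stem cell markers were examined as a set of 10 genes chosen by name: Lgr5, Ascl2, Olfm4, Smoc2, Axin2, Rnf43, Prom1, Cd44, Tert and Lrig1. All 10 of 10 were measured, each by 1 probe set (a group of probes read as 1 value), among 19938 genes in all. The RNA came from whole small intestine of mouse embryos at E18.5, shortly before birth. The control group held 3 samples labelled wild type, and the other group held 3 labelled as a conditional knockout (cKO) of E-cadherin, the adhesion molecule encoded by Cdh1. No source used here says which Cre drove the deletion, which exons it removed, or whether a sample was 1 embryo. Values are log2 expression values from Affymetrix Mouse Gene 1.0 arrays, so that a difference of 1 stands for a doubling.

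In the adult intestine, stem cells divide at the base of the crypts and are kept there by Wnt signals, which stabilise beta-catenin, and by R-spondins, which bind Lgr receptors and amplify those signals. Before birth crypts have not yet formed, and the dividing epithelial cells lie between the villi. Lgr5, Ascl2, Olfm4, Smoc2, Axin2 and Rnf43 are best known from the cycling cells of the crypt base and most of them are Wnt targets. Olfm4 also responds to Notch. Cd44, Prom1 and Tert have been used as stem cell markers too, but are found in other cells as well. Lrig1, an inhibitor of EGF family receptors, marks a broader group of crypt cells. In bulk tissue, fewer cells of a type and less RNA per cell cannot be told apart.

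Of the 10 markers, 3 rose (Cd44, Prom1 and Smoc2), 1 fell (Tert) and 6 did not pass the threshold, an adjusted p under 0.05 over all genes (limma, Benjamini-Hochberg). Over all genes tested, 14.2% passed, 6.81% higher and 7.36% lower in cKO, shares to be read beside each list count below. That balance turned with the other scalings: 1358 genes were higher and 1467 lower as deposited, against 1830 higher and 1413 lower after quantile normalization, 1490 and 1091 once the arrays were centred on their medians, and 1682 and 1456 after cyclic loess. The 3 markers set against the cycling group, Cd44, Prom1 and Tert, all passed, whereas 1 of the 6 cycling markers did. This contrast was chosen with earlier results of these data known, so it describes the values and was not tested. Cd44, Prom1 and Tert passed in all 15 alternative settings. The cycling count was 0 without control 2, control 3 or cKO 3, and 3 with median centring of the arrays or with array weights. The median size of the difference, whatever its sign, was 1.34 for Cd44, Prom1 and Tert and 0.38 for the 6 cycling markers, against 0.23 over all genes. Signed, the median difference of the 10 markers was 0.38 and that of all genes -0.09. The cKO and control values did not overlap for 7 of the 10 markers, against 35.4% of all genes.

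Some arrays stood apart and touch these results. On cKO 2 the 1227 olfactory, vomeronasal and taste receptor genes, taken as a measure of background, lay 0.37 below the control mean (median), while on the other arrays the shift was -0.06 to 0.09. The level under which 95% of them fell is called the background level here. It was 6.19 to 6.36 on the control arrays and 6.25, 5.79 and 6.08 on cKO 1, 2 and 3. All 10 markers lay above it on all 6 arrays. On cKO 3 the summed level of 5 pancreatic acinar genes was 13.68 (log2), while the other 5 arrays read 8.06 to 8.83. For Cdh1 the controls read 9.86, 9.82 and 10.15 and cKO 1, 2 and 3 read 9.70, 8.38 and 8.91, a difference of -0.95 (SE 0.31, limma adjusted p = 0.088). The exact two-sided permutation test gave p = 0.1, the smallest that 3 against 3 allows. Nothing in the labels says that the samples were separate animals; p-values then reflect the spread of these samples alone, which may be technical.

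**Figure D1:**
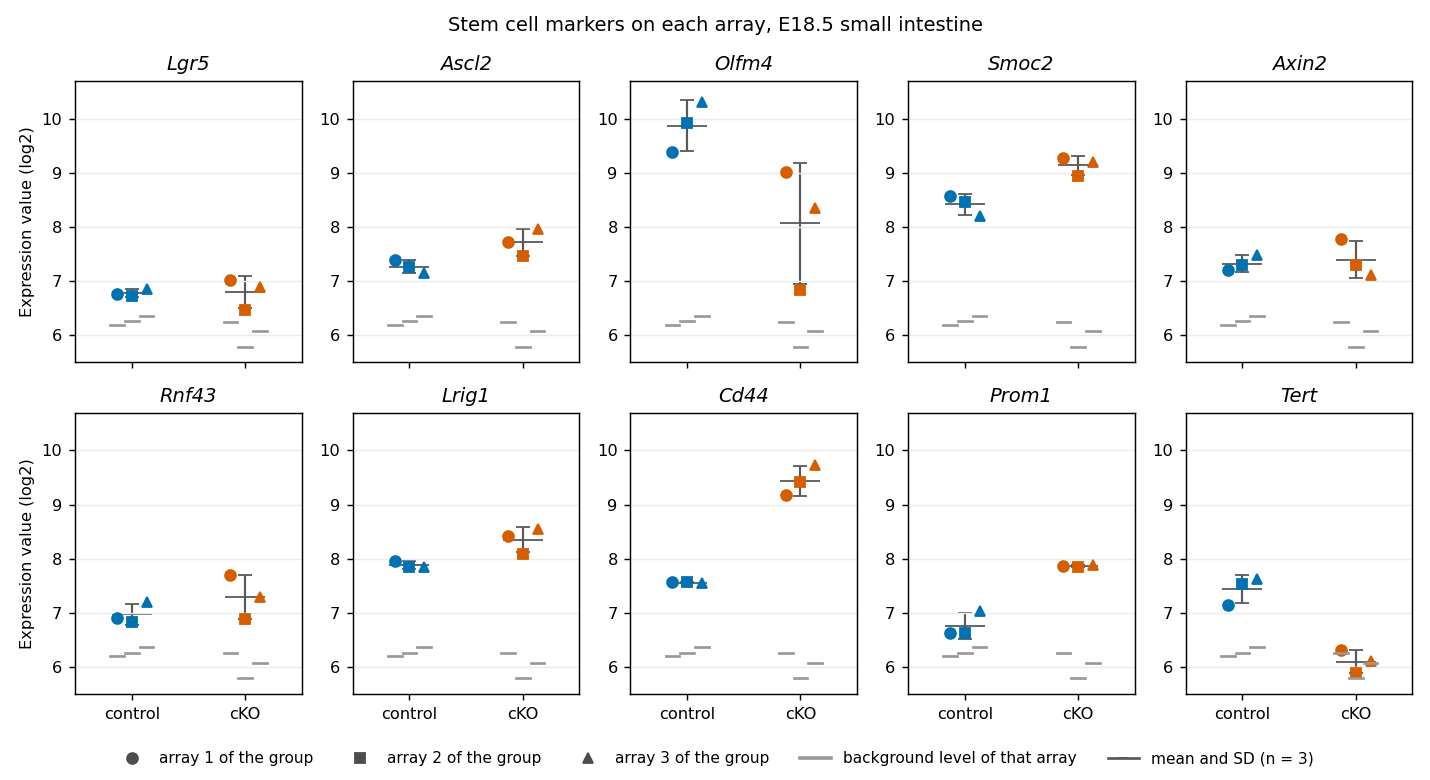
Expression value (log2, vertical axis) of each stem cell marker on the 3 control (blue) and 3 cKO (orange) arrays, with the mean and SD of each group and, as grey dashes, the background level of each array. Cd44 and Prom1 lie higher and Tert lower on all cKO arrays, Tert close to background there, while the Lgr5, Axin2 and Rnf43 groups overlap.

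Lgr5 encodes the R-spondin receptor that defines crypt base columnar cells. Controls 1, 2 and 3 read 6.77, 6.72 and 6.86, and cKO 1, 2 and 3 read 7.03, 6.47 and 6.89. The cKO values lay on both sides of the controls, with the lowest on cKO 2 and the highest on cKO 1. The difference was 0.013 (SE 0.16, limma adjusted p = 0.967), with a 95% interval of -0.37 to 0.39, that is, from 0.777-fold to 1.31-fold. A change of the measured value beyond those limits lay outside the interval, and a smaller one could not be told from no change. The limits are not adjusted over all genes, so they do not mark the smallest change that could pass. Ascl2, with an SE of 0.15, did not pass at 0.45 (limma adjusted p = 0.098). Lgr5 lay only 0.46 to 0.81 above the background level of each array, so the interval need not bound the change in RNA.

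Axin2, an inhibitor of the Wnt pathway that is itself a general Wnt target, showed the same overlap. The controls read 7.20, 7.29 and 7.49, and the cKO arrays 7.78, 7.29 and 7.12. The cKO arrays thus spread around the control range. The difference was 0.07 (SE 0.19, 95% interval -0.37 to 0.51, limma adjusted p = 0.829). Rnf43 encodes a membrane ubiquitin ligase that removes Wnt receptors from the cell surface. Its controls read 6.90, 6.83 and 7.19, and its cKO arrays 7.69, 6.88 and 7.29. Both the cKO 1 and the cKO 3 value exceeded all controls, and cKO 2 fell among them. The difference of 0.31 (SE 0.22, 95% interval -0.19 to 0.82) did not pass (limma adjusted p = 0.382).

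Ascl2 encodes the transcription factor that drives the Lgr5 cell programme. On the control arrays it was 7.39, 7.26 and 7.16, and on the cKO arrays 7.73, 7.47 and 7.97. All 3 cKO values lay above the 3 control values, by as little as 0.08 between the nearest arrays. The difference was 0.45 (SE 0.15, 95% interval 0.09 to 0.81), and it did not pass over all genes (limma adjusted p = 0.098). Without cKO 2 it did (0.035), with a value of 0.58, as it did with median centring, cyclic loess and array weights. Its adjusted p ranged from 0.00501 to 0.267 over the 15 alternatives.

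Olfm4 encodes a secreted glycoprotein that is abundant in crypt base cells. It had the largest difference of the 10 markers in size after Cd44 and the widest spread. The 3 controls read 9.38, 9.92 and 10.32, whereas cKO 1, 2 and 3 read 9.02, 6.83 and 8.35. Every cKO value was below every control, but cKO 1 lay only 0.36 below the lowest control while cKO 2 was far lower. The means were 9.87 ± 0.47 and 8.07 ± 1.12 (SD, n = 3 each). The difference was -1.81 (SE 0.53, 95% interval -3.04 to -0.57), or 3.5-fold lower as measured, and it did not pass (limma adjusted p = 0.063). It passed without cKO 1 (difference -2.28, 0.029) and was -1.19 without cKO 2 (0.053). It also passed with median centring, array weights, an intensity trend and without the dimmest 25% of genes. Over the alternatives its adjusted p ranged from 0.00736 to 0.211. Cdh1 was also highest on cKO 1 and lowest on cKO 2 within the cKO group; with 3 arrays this was not tested.

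Smoc2, a secreted calcium-binding matrix protein of crypt base cells and of fibroblasts, was the cycling marker that rose. Control values were 8.58, 8.47 and 8.21, and cKO values 9.27, 8.94 and 9.21. The groups did not overlap. The difference was 0.72 (SE 0.15, 95% interval 0.37 to 1.07, limma adjusted p = 0.019), or 1.65-fold. It did not pass when control 2, control 3 or cKO 3 was left out (0.071, 0.070 and 0.071 as adjusted p, with differences of 0.74, 0.62 and 0.68). In the other 12 alternatives it passed, down to an adjusted p of 0.00165. Smoc1, its closest relative, rose by 0.56 (SE 0.12, limma adjusted p = 0.022), a call lost without control 1, 2 or 3 or cKO 3.

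Markers of connective tissue and muscle moved with Smoc2. All 6 fibroblast markers rose, with a median of 0.70, led by Pdgfra at 1.23, Lum at 0.93 and Dcn at 0.77. Their summed level (log2) was 12.97 to 13.18 in controls and 13.60 to 13.86 in cKO. All 6 smooth muscle markers rose as well, with a median of 0.87 and a summed level of 13.72 to 13.99 against 14.58 to 14.68, led by Des at 1.35. Of these, Acta2 was not called without control 1, 2 or 3 or cKO 3, nor Myh11 without control 2, control 3 or cKO 3. The fibroblast count was 1 without control 2 or control 3, 2 without cKO 1 or cKO 3, and 3 without control 1. The part of these cells in the Smoc2 difference was not tested. None of the 12 markers was at background on all arrays.

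Cd44, the hyaluronan receptor, showed the largest difference. It is a described Wnt target in crypts and is also abundant on leukocytes and mesenchymal cells. The controls were almost identical at 7.56, 7.56 and 7.55, and the cKO arrays read 9.17, 9.41 and 9.73. The lowest cKO value was thus well above the highest control. The means were 7.56 ± 0.0058 and 9.44 ± 0.28 (SD, n = 3 each), a difference of 1.88 (SE 0.16, 95% interval 1.52 to 2.24, limma adjusted p = 0.0008), or 3.68-fold (95% interval 2.86 to 4.74). It passed in all 15 alternative settings, with adjusted p from 6.61e-05 to 0.00861 and differences from 1.73 to 2.06. Without cKO 3 the difference was 1.73.

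Of 12 measured genes for hyaluronan turnover and other Cd44 partners, 4 rose and 0 fell, with a median of 0.38. They were Vcan, a hyaluronan-binding proteoglycan, at 1.31 (SE 0.20), Msn, the cytoskeletal linker moesin, at 0.95, Has3, a hyaluronan synthase, at 0.78, and the hyaluronan receptor gene Hmmr at 0.56. Has3 was at background on all controls and on 1 cKO array, so its difference is not exact. The count was 2 without control 2, control 3 or cKO 3. Esrp1 and Esrp2, which set the epithelial splicing of Cd44 transcripts, were among the members that did not pass. A single probe set does not show which Cd44 isoform was measured.

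Macrophage markers were higher on the same arrays as Cd44, whereas most neutrophil and lymphocyte markers did not pass. Of 9 macrophage markers, 7 rose, with a median of 1.05 and a summed level of 11.03 to 11.15 in controls against 11.74 to 12.09 in cKO. Those with the smallest p were Cd68 at 1.05, C1qb at 1.24 and Adgre1 at 1.22, the last at background on 2 of 3 control arrays. Of 10 neutrophil markers, 3 rose (Ly6g, Cxcr2 and S100a8), with a median of 0.12 over the 10 and a summed level of 8.89 to 8.95 against 9.17 to 10.39, the highest on cKO 2. The controls of all 3 were at background, and Ly6g was higher by at least 2.25-fold. Cxcr2 and S100a8 were at background on 2 of 3 cKO arrays too, and lay above it on cKO 2 alone (7.32 and 6.46). The neutrophil genes Mpo, Camp and Ngp were at background on all arrays. The neutrophil count was 0 without any 1 of the 3 controls and without the dimmest 25% of genes. Of 6 lymphocyte markers 1 rose, the general leukocyte gene Ptprc at 1.04, with a median of -0.16 over the 6 and a summed level of 9.04 to 9.15 against 9.20 to 9.35; 2 of the 6 were at background on all arrays. The part of these cells in the Cd44 difference was not tested.

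Prom1 encodes prominin 1, the CD133 antigen of membrane protrusions, found on intervillus and crypt epithelium. Control values were 6.62, 6.62 and 7.03, and cKO values 7.87, 7.85 and 7.88. The cKO arrays differed from each other by only 0.03 and all lay above the controls. The means were 6.76 ± 0.24 and 7.87 ± 0.015 (SD, n = 3 each), a difference of 1.11 (SE 0.14, 95% interval 0.78 to 1.44, limma adjusted p = 0.0033), or 2.16-fold. It passed in all 15 alternative settings (adjusted p from 0.000283 to 0.0226). Its relative Prom2 differed by -0.39 (SE 0.18, limma adjusted p = 0.213). General epithelial markers did not move the same way as Prom1. Of 8, 3 fell (Prss8 at -1.26, Hnf4a at -0.88 and Cdx2 at -0.79) and 0 rose, with a median of -0.27 and a summed level of 13.82 to 14.12 in controls against 13.62 to 13.70 in cKO. The other 5 did not pass, and Hnf4a was not called without cKO 3 (limma adjusted p = 0.065).

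Tert, the catalytic subunit of telomerase, was the marker that fell. The controls read 7.14, 7.53 and 7.63, whereas the cKO arrays read 6.31, 5.88 and 6.10. The groups were well apart, but the cKO values lay only 0.06, 0.09 and 0.02 above the background level of their arrays. The means were 7.43 ± 0.26 and 6.10 ± 0.22 (SD, n = 3 each). The difference was -1.34 (SE 0.17, 95% interval -1.74 to -0.93, limma adjusted p = 0.0036), or 2.53-fold lower as measured. It passed in all 15 alternative settings, with adjusted p from 0.000343 to 0.0233. Enterocyte markers were lower on the same arrays: 7 of 8 fell, those with the smallest p being Fabp2 at -1.68, Ace at -3.06 and Apoc3 at -1.73, with a summed level of 14.76 to 15.28 against 13.64 to 13.83. The count was 5 without control 2, 6 without control 3 and 8 without control 1. The part of enterocytes in the Tert difference was not tested.

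Of the other measured subunits of telomerase and of shelterin, the complex that protects chromosome ends, 2 of 12 rose and 0 fell, with a median of 0.12. Over all genes 14.2% passed, 6.81% higher and 7.36% lower. Terf1, which binds telomeric repeats, rose by 0.49 (SE 0.11, limma adjusted p = 0.024) and Nhp2, a subunit of the telomerase particle, by 0.51 (SE 0.13, 0.042). The count was 0 without control 2, control 3 or cKO 3 and 1 without control 1, cKO 1 or cKO 2. Dkc1, which binds the telomerase RNA, differed by 0.44 (limma adjusted p = 0.182), and Acd by -0.20 (0.268).

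For Lrig1 the controls read 7.96, 7.84 and 7.85, and the cKO arrays 8.42, 8.09 and 8.54, all above the controls. The difference was 0.47 (SE 0.14, 95% interval 0.13 to 0.80) and did not pass (limma adjusted p = 0.074). It passed without cKO 2 (difference 0.60, adjusted p = 0.019) and with each of the 3 other scalings, in 7 of the 15 alternatives in all (0.00304 to 0.218). Of the 10 measured ErbB receptors, ligands and feedback genes on which Lrig1 acts or which share its pathway, 5 rose and 0 fell, with a median of 0.37. The ligand genes Btc and Hbegf rose by 1.5 (SE 0.17) and 1.02 (SE 0.11), and the receptor gene Egfr by 0.70 (SE 0.13). Ereg rose by at least 2.56-fold, its controls being at background. The count was 3 without control 2. The relatives Lrig2 and Lrig3 differed by -0.29 and 0.23 (limma adjusted p = 0.266 and 0.26).

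**Figure D2:**
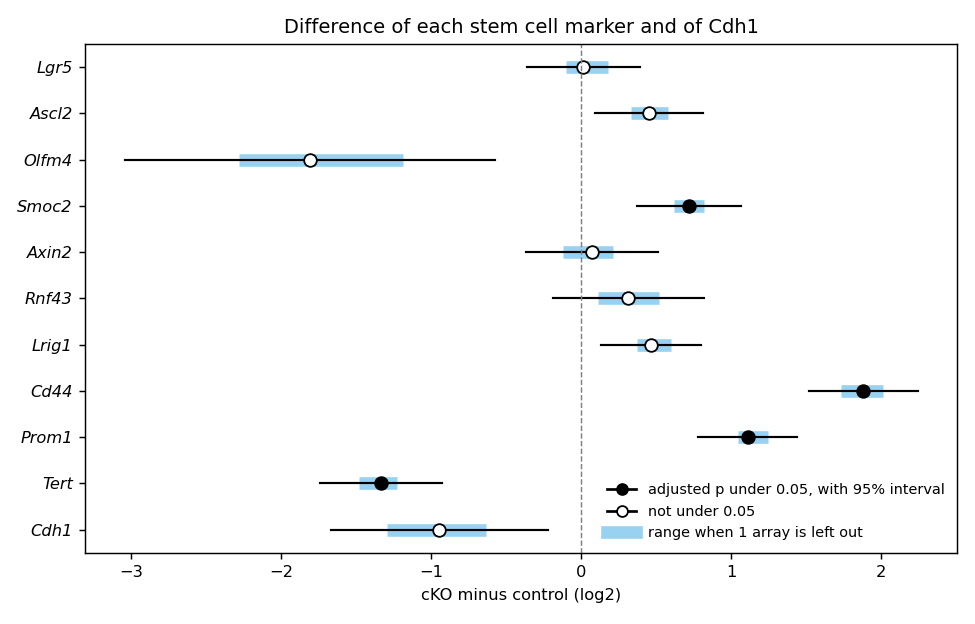
Difference between cKO and control (log2, horizontal axis) of each stem cell marker and of Cdh1, with 95% intervals (black lines) and the range of the difference when 1 array is left out (blue bars). Filled points passed an adjusted p under 0.05: Cd44 at 1.88, Prom1 at 1.11, Smoc2 at 0.72 and Tert at -1.34.

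The DNA before the start sites of the 3 markers that passed outside the cycling group is shown with that of Axin2, the general Wnt target that did not pass, so that markers with unlike differences can be compared. Windows of 250 bases ending just before the start site were taken from RefSeq (GRCm38.p6), at the most upstream start where a gene has several. Of the 10 markers, 8 were in the table; Lgr5 and Smoc2 were not matched. Capitals mark a motif match, 5′ to 3′ on the gene's strand. The windows lie at chr2:102901666-102901915 on the minus strand for Cd44, chr5:44101737-44101986 on the minus strand for Prom1, chr13:73626661-73626910 on the plus strand for Tert and chr11:108920099-108920348 on the plus strand for Axin2.
Cd44: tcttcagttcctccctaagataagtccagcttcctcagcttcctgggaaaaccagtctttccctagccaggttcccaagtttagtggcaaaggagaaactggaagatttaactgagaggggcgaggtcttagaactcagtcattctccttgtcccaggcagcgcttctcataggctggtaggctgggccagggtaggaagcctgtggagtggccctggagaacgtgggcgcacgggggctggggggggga
Prom1: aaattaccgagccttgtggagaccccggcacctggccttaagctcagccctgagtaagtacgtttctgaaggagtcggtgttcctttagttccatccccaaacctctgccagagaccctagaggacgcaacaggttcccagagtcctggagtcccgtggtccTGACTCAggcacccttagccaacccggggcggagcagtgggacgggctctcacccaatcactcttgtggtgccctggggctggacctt
Tert: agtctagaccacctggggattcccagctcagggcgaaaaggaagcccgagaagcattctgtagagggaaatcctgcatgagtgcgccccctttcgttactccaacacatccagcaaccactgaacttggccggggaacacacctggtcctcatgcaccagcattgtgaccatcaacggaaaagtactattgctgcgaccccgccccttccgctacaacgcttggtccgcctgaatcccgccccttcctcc
Axin2: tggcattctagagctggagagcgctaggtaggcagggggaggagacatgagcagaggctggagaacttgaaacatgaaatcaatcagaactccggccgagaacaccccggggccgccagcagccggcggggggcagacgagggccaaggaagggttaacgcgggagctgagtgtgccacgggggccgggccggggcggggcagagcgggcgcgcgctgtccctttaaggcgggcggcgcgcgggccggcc

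Both strands were searched for the TCF/LEF core CTTTGA or CTTTGT, the TEAD motif GGAATG, the AP-1 motif TGANTCA and the E-box CACGTG. Over 27025 genes with such a window, 27.8% held a TCF/LEF core, 12.6% a TEAD motif, 6.85% an AP-1 motif and 6.04% that E-box. In the 8 marker windows, the single match was an AP-1 motif in Prom1, from base 88 to base 82 before the start. The TCF/LEF core was in none of the 8 windows, those of Axin2, Ascl2 and Rnf43 included. The absence of these letters here says nothing about sites elsewhere. G and C made up 56.4% of the Cd44 window, 59.2% of that of Prom1, 57.2% of that of Tert and 69.2% of that of Axin2, against a median of 52.0% over all windows.

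Wnt targets other than the 10 markers did not move as 1 group. Of 18 measured, 5 rose and 1 fell, with a median of 0.06. Myc, the growth regulator, rose by 1.04 (SE 0.16), Dkk2, a secreted Wnt modulator, by 0.80 (SE 0.13), Ephb3, which positions cells along the crypt axis, by 0.65 (SE 0.13), and the protease gene Mmp7, which also marks Paneth cells, by 1.94 (SE 0.19). Controls of Mmp7 and Dkk2 were at background on 2 of 3 arrays. The 12 that did not pass include Nkd1, Sp5, Notum and Lef1, which was at background. The count of those that rose was 3 without control 1, control 2 or cKO 3, and Cdx1, the member that fell, was not called without control 1, 2 or 3 or cKO 3.

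Other crypt base columnar markers were called at about the share of all genes, 14.2%. Of 16 measured, 2 rose and 1 fell, with a median of -0.01. Cdk6, a cell cycle kinase, rose by 1.17 (SE 0.12) and Phlda1 by 0.65 (SE 0.11). Rnf32, which was called lower at -0.49, was at background on all arrays, and its call was lost when any 1 array was left out and with each of the 3 other scalings. Cdca7 differed by 0.38 (limma adjusted p = 0.101). The call of Phlda1 was lost without control 2. Of 8 other genes used as markers of slowly cycling or reserve stem cells, 3 rose and 0 fell, with a median of 0.28: Clu, which marks regenerating cells, by 2.48 (SE 0.23), Hopx by 0.83 (SE 0.14) and Krt19 by 0.77 (SE 0.11). That count was 3 without any 1 array. Mex3a differed by 0.34 (limma adjusted p = 0.095). A list of 10 fetal and regenerative epithelial genes, chosen with their differences in these data known, had all 10 higher, with a median of 2.73.

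Upstream of Lgr5, Rnf43 and Axin2, 4 of 19 Wnt and R-spondin ligands and receptors rose and 0 fell, with a median of -0.11. Wnt5a, a ligand of the villus mesenchyme, rose by 1.19 (SE 0.15), the receptor gene Fzd7 by 0.96 (SE 0.12), the R-spondin gene Rspo3 by 0.82 (SE 0.16) and Wnt2b by 0.66 (SE 0.17). The count was 2 without control 2, control 3 or cKO 3. Lgr4, the more widely expressed relative of Lgr5, differed by -0.20 (SE 0.12, limma adjusted p = 0.325), Znrf3, the relative of Rnf43, by -0.04 (0.876), and Axin1 by -0.02 (0.917). Lgr6 was at background. In the beta-catenin complex 1 of 12 genes rose, the transcription factor gene Tcf7l2 at 0.52 (SE 0.13, limma adjusted p = 0.034), a call lost without control 1, 2 or 3, cKO 1 or cKO 3. Tcf7l1, Csnk1a1 and Pygo2 differed by 0.44, 0.18 and 0.17 and did not pass.

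Of the 12 Notch pathway genes, set beside Olfm4, 2 rose and 1 fell, with a median of 0.002. Nrarp, a direct Notch target, fell by 0.66 (SE 0.11, limma adjusted p = 0.0094). The receptor gene Notch2 rose by 0.65 (SE 0.13, 0.015) and Rbpj, the DNA-binding partner, by 0.52 (SE 0.11, 0.021). For Rbpj this held for the brighter of 2 probe sets alone. The other probe set differed by -0.21 (limma adjusted p = 0.578) and the mean of both by 0.155 (0.508). The ligand gene Dll1 differed by -0.48 (0.057). Without control 2 none of the 12 passed, without control 3 1 fell and 0 rose, and without cKO 3 1 rose and 1 fell. Of 15 cell division genes, 0 passed by limma, although 11 had an unadjusted p under 0.05, with a median of 0.39. Aurka and Mcm3 differed by 0.59 each, Ccna2 by 0.46 and Mki67, a marker of cycling cells, by 0.39 (limma adjusted p = 0.053, 0.058, 0.063 and 0.063). Higher calls numbered 13 with array weights, 8 with quantile normalization, 7 with an intensity trend, 6 with cyclic loess, 6 without the dimmest 25% of genes, 5 without cKO 1 and 1 without control 1.

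**Figure D3:**
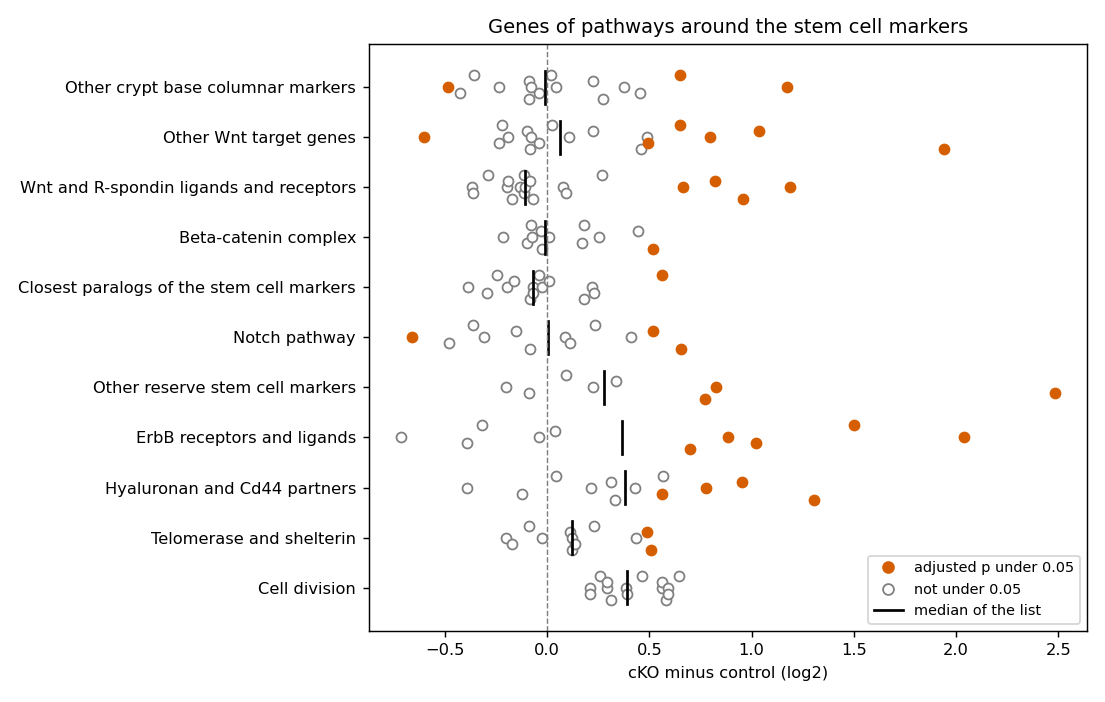
Difference between cKO and control (log2, horizontal axis) of each measured gene of 11 lists around the stem cell markers, 1 point per gene, with the list median as a black bar and genes past an adjusted p under 0.05 filled. Filled points lie mostly to the right, while the medians lie between -0.11 and 0.39.

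Of the 15 measured paralogs of the markers, Smoc1 alone passed, and the median was -0.07. Besides those named above, Olfm1 differed by 0.22, Olfm2 by -0.07, Lyve1 by 0.18, Ascl4 by -0.07 and Ascl5 by -0.25, with limma adjusted p of 0.402 or more. Ascl3 and Olfm3 were at background on all arrays.

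Among the other cell types, goblet cell genes did not move with the markers, with 1 of 6 higher (Zg16) and 1 lower (Tff3); Zg16 was not called without control 2, cKO 1 or cKO 3, nor Tff3 without control 1, control 2 or cKO 3. Of 4 Paneth cell genes, 3 were higher and 1 lower (0 lower without control 2, control 3 or cKO 1), and of 4 mesothelial genes 2 were higher (1 without control 3). Endothelial, enteric nervous system, erythroid and acinar lists had 0 of 6, 0 of 4, 0 of 4 and 0 of 5 genes past the threshold by limma (3, 2, 0 and 0 at an unadjusted p under 0.05). With array weights these counts were 3, 0, 1 and 5, although the summed acinar level stood out on cKO 3 alone.

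**Figure D4:**
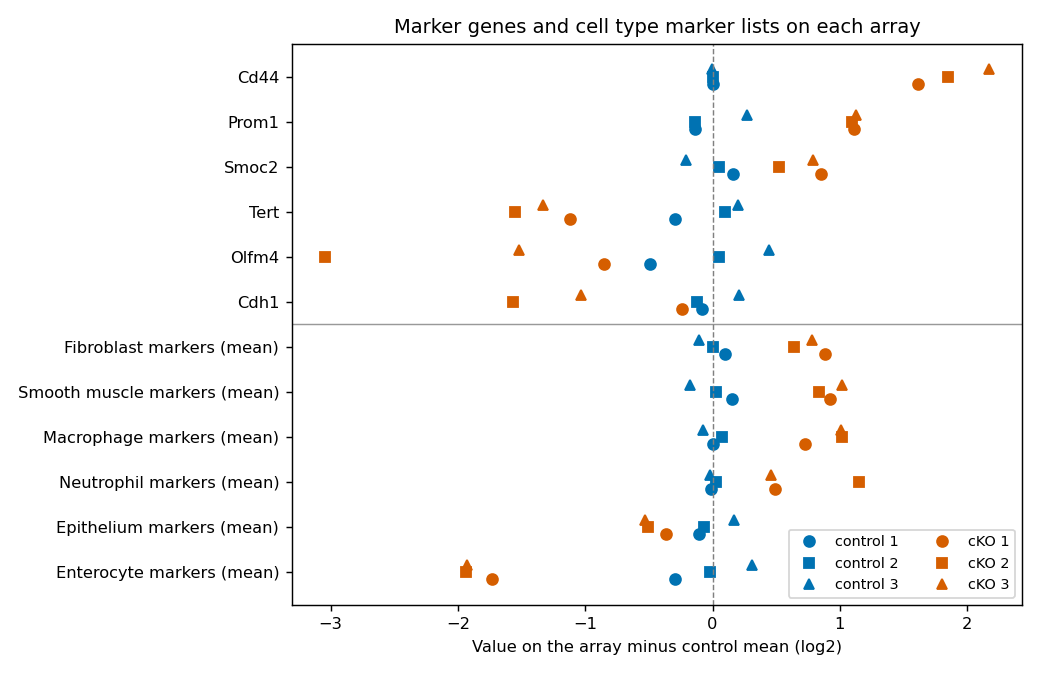
Value on each array minus the control mean (log2, horizontal axis) for single genes (upper rows) and for the mean of cell type marker lists (lower rows), controls in blue and cKO in orange, 1 symbol per array number. Cd44, Prom1 and Smoc2 lie to the right on the cKO arrays with the fibroblast, smooth muscle and macrophage lists, and Tert and Olfm4 lie to the left with the enterocyte list.

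The genes with the most similar profiles were found by the root mean square (RMS) difference over the 6 arrays, each gene centred on its control mean, among 19928 other genes. For Cd44 they were Rtl3, Tnfrsf12a and Eln, the elastin gene (RMS difference 0.067, 0.097 and 0.11). Those of Prom1 were Atp10b, Ms4a4c and Nid1, a basement membrane gene (0.090, 0.10 and 0.11). Smoc2 had Myl9, Vim and Ptges (0.053, 0.066 and 0.067). Tert had Cyp2j6, Slc5a9 and Hadh (0.069, 0.071 and 0.077). The nearest to Lgr5 were Pogk, Folr2 and Snord16a (0.022, 0.031 and 0.032). All 3 were lowest on cKO 2, as Lgr5 was, and Folr2 was at background on all arrays.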

How the data were processed

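The authors analysed Affymetrix Mouse Gene 1.0 arrays with dChip, per the series design text. No source used here gives its version, its background correction, its scaling or its model. Each probe set has 1 deposited value per array, read as log2 from its range and used as it stands. There is no read depth; precision is limited by the number of arrays. Of 35512 probe sets, 21789 had 1 gene symbol, 1621 several and 12102 none listed. Of those with 1 symbol, 21698 were found in the RefSeq gene table (GRCm38.p6) and took the symbol given there. The brightest probe set per gene gave 19938 genes.

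Groups were compared by limma 3.58.1 in R 4.3.3 (lmFit and eBayes, 6 arrays, no covariate, two-sided), with Benjamini-Hochberg adjustment over all genes; the fit was tested on simulated data. Levels of different probe sets were not compared. Alternatives were 3 other scalings, a filter on dim genes, mean or separate probe sets, array weights, an intensity trend, the replicate block and leaving out each array. Named genes were the markers, Cdh1, the paralogs and the 3 nearest profiles. From the lists came the genes with the smallest p, up to 4 of each pathway list and 3 of each cell type list. Cdx1, Nkd1, Sp5, Notum, Lef1, Esrp1, Esrp2, Mpo, Camp, Ngp, Acta2 and Myh11 were named after their values were seen. The markers and lists were chosen with earlier results of these data known.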

Additional observations from a re-analysis of the deposited data

How the results depend on the processing

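Cd44, Prom1 and Tert kept their direction and passed in all 15 alternatives. Smoc2 passed in 12, Lrig1 in 7, Olfm4 in 5 and Ascl2 in 4; Lgr5, Axin2 and Rnf43 passed in 0. With median centring 7 of the 10 markers passed, as with array weights, and leaving out 1 array gave 3 to 6. Lgr5 changed sign among the fits without 1 array (-0.10 to 0.18), as did Axin2 (-0.12 to 0.21), which was also -0.066 with array weights. Array weights gave 5834 genes called (2921 higher and 2913 lower) against 2825 (1358 and 1467). Cpa1, an acinar gene high on cKO 3 alone, differed by 2.97 with array weights and by 1.19 without. That fit thus leaned toward cKO 3, which limits the passes it gave. Leaving out 1 array gave 1226 to 2713 genes, 509 to 1275 higher and 717 to 1438 lower, the fewest without control 2. Cdh1 passed at -0.89 with array weights and at -0.95 with an intensity trend, and was -1.30 to -0.64 when 1 array was left out, passing without cKO 1. The causes were not tested. The labels do not say whether the replicate numbers pair the samples. Deviations of same-numbered arrays from their group means correlated at -0.080, 0.13 and 0.14, and those of differently numbered arrays at -0.24 to 0.15. With 3 arrays a group these correlations cannot decide whether samples were paired. With the replicate block 4 markers and 2212 genes passed. Of the genes named from the lists, Terf1, Nhp2, Tcf7l2, Rbpj, Has3, Hmmr, Rnf32 and Acta2 were then no longer called. Other scalings moved the median of all genes from -0.09 to between -0.01 and 0.007, and no marker that passed changed direction with them. Signal near background limits Tert in cKO and, less so, Lgr5 on all arrays and Prom1 and Rnf43 on the control arrays. The 3 arrays a group limit the differences that could be detected for Lgr5, Axin2 and Rnf43.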
